A study of Sus scrofa with 6 samples.

Results

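The genes described here encode molecular chaperones and other protein folding factors, measured in cortical tissue from pig embryos of embryonic day 80 (E80) and of embryonic day 60 (E60). They were chosen by symbol as the heat shock proteins, the J proteins (DNAJ), the subunits of the chaperonin TRiC and of prefoldin, the BAG cofactors, the protein disulphide isomerases, calnexin and calreticulin, the FK506 binding proteins (FKBP), the cyclophilins PPIA to PPIH, and ST13, STIP1, AHSA1 and SERP1, without the proteoglycan HSPG2. In all 88 such genes were measured, by 142 probe sets, out of 6765 gene symbols and 23999 probe sets on the array. Cortical RNA of 3 E80 embryos and 3 E60 embryos was hybridised to the Affymetrix Pig Genome Array, 1 array for each embryo. The labels give the embryonic day and name no treatment or genetic alteration of the embryos. The study compared these days because the folds of the pig cortex form between them. The litter of each embryo is not given in the sources used here, so the p-values measure the spread between these arrays. The values are MAS5 signals, a brightness on a linear scale that Affymetrix software computes for each probe set and scales to a common level on every array. A gene with several probe sets is given by the brightest one.

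Chaperones bind proteins that are not yet folded or have lost their fold, and most work in relays. HSP70 proteins hold short stretches of a chain while J proteins deliver the client and nucleotide exchange factors release it, HSP90 acts later on kinases and receptors, and the chaperonins enclose a chain in a chamber. The endoplasmic reticulum (ER) has a set of its own for secreted and membrane proteins, while FKBPs and cyclophilins turn the bonds before proline residues. In neurons the HSP70 system also strips the clathrin coat from vesicles. Several family members are switched on by heat or by unfolded protein in the ER, and others are made at a steady level.

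Most of these genes had nearly the same signal on both days. The gene FKBP1B, which encodes an FKBP that binds the ryanodine receptor calcium channel, was the only 1 of the 88 to pass the test and rose 1.41-fold at E80. The test was limma's moderated test on log2 signals with p-values adjusted by Benjamini-Hochberg for 23999 probe sets, and a gene was called at an adjusted p under 0.05. The call of 1 of 88 genes (1.14%) as higher stood beside 0.933% of all probe sets, and 0 of 88 genes were called lower beside 1.01% of all probe sets. In either direction 1.95% of all probe sets were called. Before adjustment, 11 of the genes were higher and 6 lower at a p under 0.05, which is 19.3% of them, against 18.0% of all probe sets (7.12% higher and 10.8% lower). The number called therefore lay near the share of all probe sets, but below that of genes on their brightest probe set. Over the brightest probe set of every gene, 2.54% were called and 20.7% had a p under 0.05 before adjustment. Of the genes with a mean signal above the array's median on at least 1 day, 3.48% were called and 26.0% had such a p. The 80 of the 88 genes above that median had 1.25% and 21.25%, which is lower, with 1 call.

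The log2 change, E80 minus E60, ran from -0.84 to 0.85 over the 88 genes, with 50 above and 38 below 0. Its median was 0.03, against -0.05 over all probe sets and 0.00 over the brightest probe set of every gene. The median size of the change, whatever its direction, was 0.17, against 0.26 over all probe sets and 0.22 over the brightest probe set of every gene. The mean signal of 80 of the 88 genes was above the median of the array on at least 1 day. The median size of the change was 0.17 for these 80. It was 0.19 for the 4797 of all genes whose brightest probe set lay above that median. The 95% interval of the change lay within 1.5-fold either way for 55 genes and within 2-fold for 77, so that for most of them a larger change was outside the interval. A change beyond 1.5-fold was measured in 7 genes, 3 higher and 4 lower, against 20.3% of all probe sets. Over the brightest probe set of every gene it was measured in 960 of 6765. It was measured in 422 of the 4797 genes above the array's median, and in 4 of the 80 such genes here. None of the 88 genes reached 3-fold without overlap of the days, which 1.21% of all probe sets did. The study set its threshold at 3-fold, but how it computed folds and judged agreement between arrays is not stated, so the 3-fold rule applied here may not be identical to it. Where each array was instead centred on its median, the median of all probe sets moved from -0.05 to 0.06, the median of the 88 genes became 0.14 (0.0047 with quantile normalization), and calls over the whole array became 311 higher and 108 lower in place of 224 and 243. The directions of small changes in these genes therefore depend on the scaling.

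**Figure D1:**
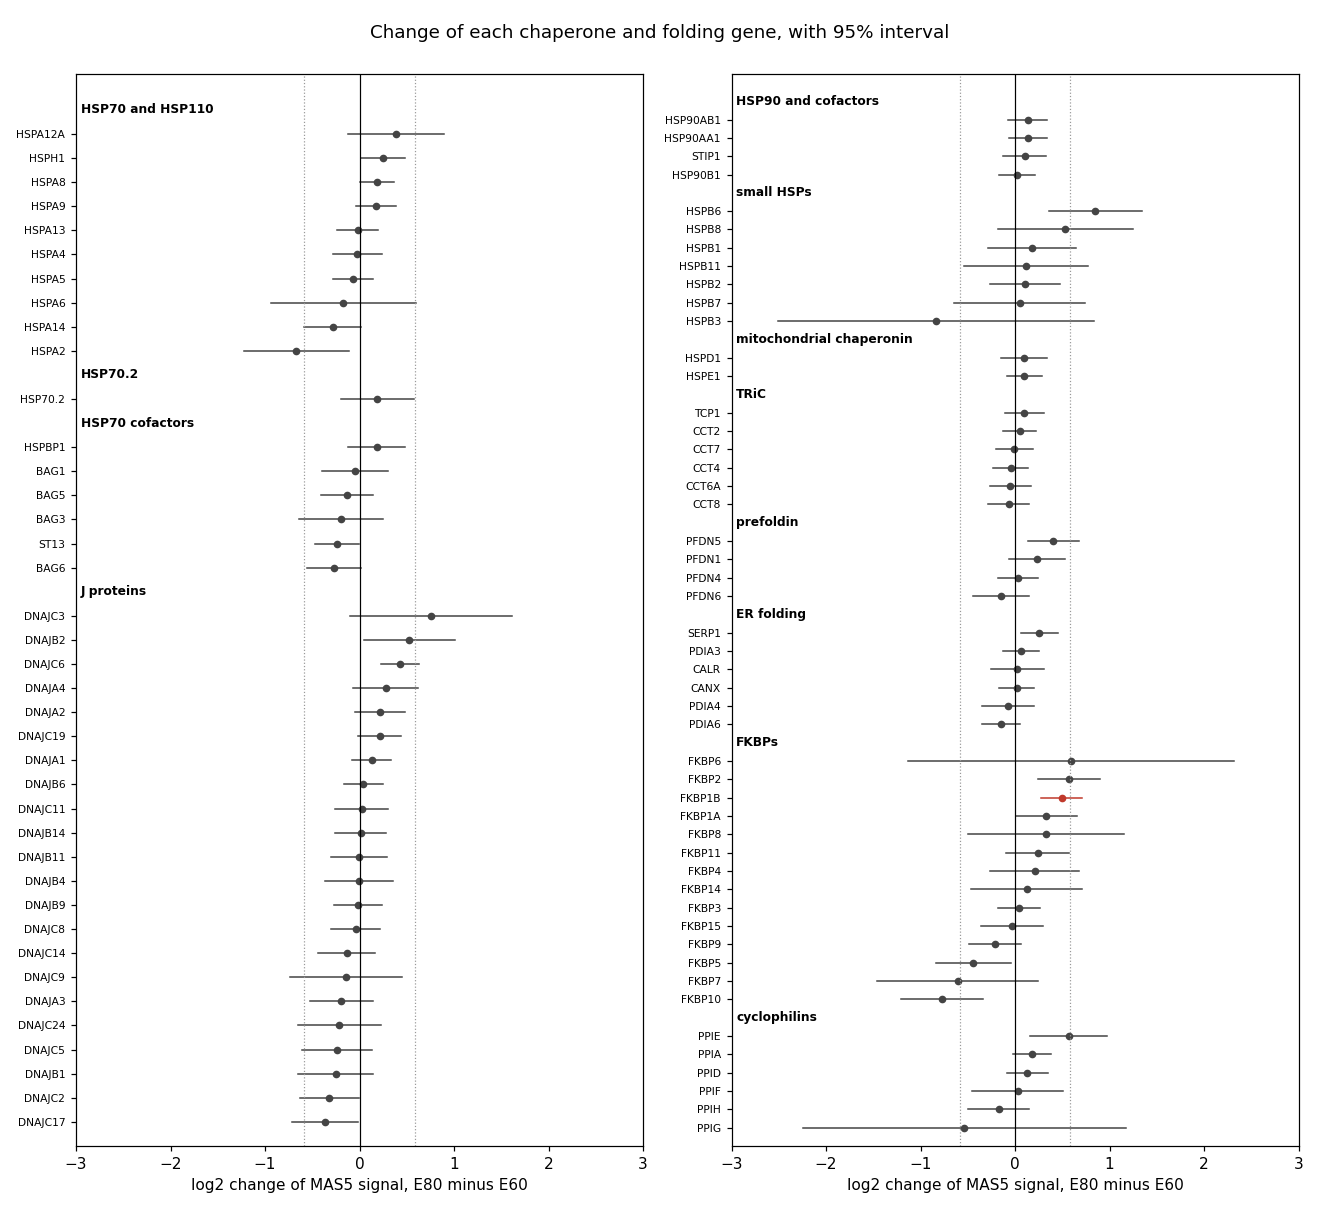
Log2 change of the MAS5 signal, E80 minus E60, of the brightest probe set of each of the 88 genes by role, with points for the estimate, lines for the 95% limma interval and dotted lines at 1.5-fold. FKBP1B, in red, is the only gene called at an adjusted p under 0.05, and most of the other intervals cross 0.

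Among the 10 members of the HSP70 and HSP110 families, 0 were called, and 2 were higher and 1 lower at a limma p under 0.05 before adjustment. HSPA8, the constitutive cytosolic HSP70 known as HSC70, had signals of 2874, 2959 and 2829 on the E80 arrays, against 2538, 2397 and 2676 on the E60 arrays. Every E80 array was above every E60 array, by a mean log2 change of 0.19 (SE 0.08, limma adjusted p = 0.260). HSPA8 was also measured by 3 dimmer probe sets, whose log2 changes were 0.48, 0.43 and 0.34, and each of them had all E80 arrays above all E60 arrays (adjusted p = 0.126, 0.129 and 0.243). HSPH1, an HSP110 protein that releases clients from HSP70, had 1127, 1274 and 1087 at E80, against 886, 1055 and 985 at E60. Its arrays did not overlap either, with a log2 change of 0.25 (SE 0.10, adjusted p = 0.240).

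HSPA2, an HSP70 best known from the mouse testis, had the lowest log2 change of the family, -0.67 (95% interval -1.22 to -0.11, adjusted p = 0.198). Its signals were 387, 329 and 234 at E80, against 368, 664 and 487 at E60. The first E80 array lay above the first E60 array, so the days overlapped. HSPA14, an HSP70 that sits at the ribosome, had 115, 112 and 100.2 at E80, against 139.7, 138 and 121 at E60. All E80 arrays were lower, by a log2 change of -0.29 (SE 0.13, adjusted p = 0.293). Its partner at the ribosome in human cells is the J protein DNAJC2, with 173, 184 and 145 at E80, against 235, 201 and 192 at E60. DNAJC2 too was lower on all E80 arrays, by -0.32 on its brighter probe set and by -0.42 on the other, where the days did not overlap either (adjusted p = 0.264 and 0.216).

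HSPA5, the HSP70 of the ER known as BiP, had a log2 change of -0.07 with a 95% interval of -0.28 to 0.14. HSPA9, the mitochondrial HSP70, averaged 1074 ± 24.6 at E80 and 956 ± 94.6 at E60 (SD, n = 3 each), a log2 change of 0.17 with overlapping arrays. The remaining family members HSPA4, HSPA6, HSPA12A and HSPA13 had log2 changes between -0.17 and 0.39, all with overlap. HSPA6 was dim, at 17.3 to 31.7 over the 6 arrays. The gene annotated as HSP70.2 was measured by 3 probe sets. The brightest had 229, 251 and 351 at E80, against 219, 259 and 239.8 at E60, so that the third E80 array alone stood above the rest. The third E80 array was the highest on the other probe sets of HSP70.2 as well, at 381 and 301. The 3 probe sets had log2 changes from 0.19, on the brightest, to 0.45. On 1 of the dimmer ones every E80 array was above every E60 array (lowest adjusted p of the 3 = 0.294).

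The cofactors of HSP70 showed no call among 6 genes, with 1 lower before adjustment, and the days overlapped on the brightest probe set of each. ST13, or Hip, which stabilises HSP70 with its client, had 878, 935 and 1063 at E80, against 1172, 1042 and 1175 at E60, a log2 change of -0.24 (SE 0.10, adjusted p = 0.263). BAG6, which guards hydrophobic segments of new proteins, had 443, 343 and 402 at E80, against 425, 477 and 527 at E60, a log2 change of -0.27 (SE 0.13, adjusted p = 0.312). One dimmer probe set of BAG6 did separate the days, with a log2 change of -0.49 (adjusted p = 0.183). The nucleotide exchange factors BAG1, BAG3 and BAG5 had log2 changes of -0.05, -0.20 and -0.13. HSPBP1, another exchange factor, had a log2 change of 0.18.

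Of the 22 J proteins, 0 were called, with 2 higher and 2 lower before adjustment, and DNAJC6 came closest. DNAJC6 is auxilin, the J protein that recruits HSC70 to clathrin-coated vesicles in neurons. Its signals were 1148, 1058 and 1154 at E80, against 800.0, 894 and 804 at E60. The lowest E80 array was well above the highest E60 array, and the log2 change was 0.43 (SE 0.09, 95% interval 0.23 to 0.63, adjusted p = 0.0516). DNAJC6 was called in 5 of 15 alternative settings and kept its direction in all 15, with log2 changes from 0.34 to 0.54. Most of these settings could not have reversed the direction, because its days did not overlap.

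DNAJB2, a J protein enriched in neurons, had 194, 189 and 228 at E80, against 130.5, 109.6 and 197 at E60. The third E60 array lay within the E80 range, and the log2 change of 0.52 had a 95% interval of 0.04 to 1.01 (adjusted p = 0.240). DNAJC17, a nuclear J protein linked to splicing, had 99.5, 104 and 106 at E80, against 112, 133 and 157 at E60, and was lower on all E80 arrays by a log2 change of -0.36 (adjusted p = 0.257). DNAJA2 and DNAJC19, a cytosolic HSP70 partner and a J protein of the mitochondrial inner membrane, were higher on all E80 arrays by a log2 change of 0.21 each (adjusted p = 0.384 and 0.299). DNAJC5, the cysteine string protein of synaptic vesicles, had 138, 147 and 158 at E80, against 151, 159 and 220.1 at E60, with overlap. DNAJA1 and DNAJB6, which both had high signals, had log2 changes of 0.13 and 0.04. The 95% interval of DNAJB6 was -0.16 to 0.24.

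DNAJC3, an ER J protein that responds to unfolded protein, had the largest log2 change of the J proteins, 0.76, with an interval of -0.10 to 1.62. Its signals were 103, 113 and 56.9 at E80, against 64.6, 69.5 and 30.4 at E60. Array 3 was the lowest on both days, and the second probe set of DNAJC3 had a log2 change of -0.09.

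HSP90AB1 and HSP90AA1, the constitutive and the inducible cytosolic HSP90, had high signals on both days. HSP90AB1 averaged 3361 ± 98.6 at E80 and 3069 ± 276 at E60 (SD, n = 3 each), and HSP90AA1 averaged 3057 ± 51.2 at E80 and 2794 ± 233 at E60. The log2 change was 0.13 for both, with an upper limit of 0.34 for HSP90AB1 and 0.33 for HSP90AA1. The 5 probe sets of HSP90AA1 ran from -0.21 to 0.19, so they did not share a direction. STIP1, or HOP, which passes clients between HSP70 and HSP90, had a log2 change of 0.10, and the ER protein HSP90B1 one of 0.02.

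The 7 genes with an HSPB symbol, HSPB11 among them, were grouped as small heat shock proteins by symbol alone. HSPB6, known as HSP20 and abundant in muscle, had the largest log2 change of these 7 and of all 88 genes, 0.85 (SE 0.21, 95% interval 0.36 to 1.34, adjusted p = 0.0879). Its signals were 162, 148 and 178 at E80, against 65.3, 95.8 and 117 at E60. All E80 arrays were higher, while the second probe set had 47.0, 80.4 and 60.2 at E80, against 32.7, 30.8 and 59.7 at E60, a log2 change of 0.64 with slight overlap. HSPB8 had 44.8, 43.8 and 73.1 at E80, against 52.4, 27.5 and 32.9 at E60. HSPB1, or HSP27, had 498, 536 and 671 at E80, against 563, 360.0 and 605 at E60, and neither gene separated the days. HSPB3 was at 1.39 to 6.58 on all arrays, and its log2 change of -0.84 had an interval of -2.51 to 0.84. Only 3 of the 7 genes with an HSPB symbol had a mean signal above the median of the array.

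**Figure D2:**
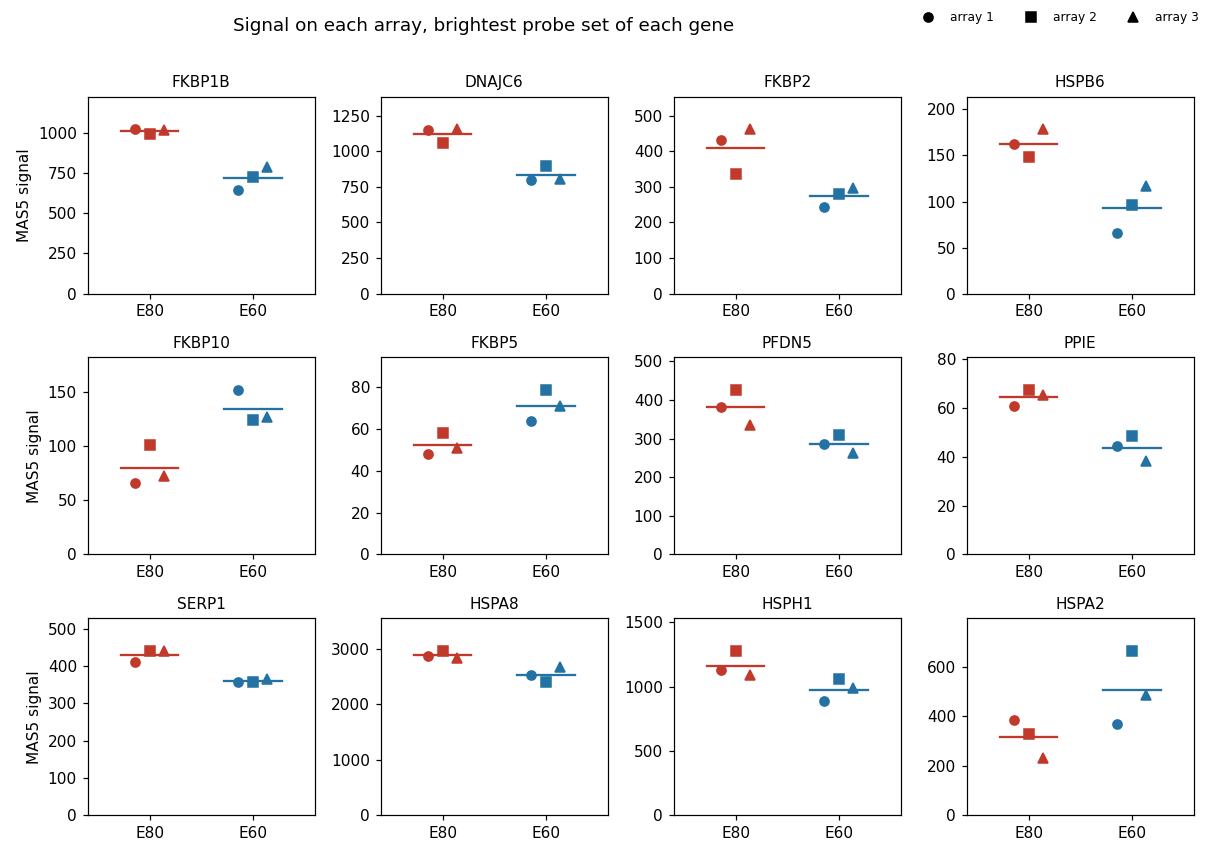
MAS5 signal on each array, E80 left of E60, of the brightest probe set of 12 genes, with horizontal lines for the mean of the 3 arrays of a day and symbols for the array number. FKBP1B separated the days at 991 to 1022 against 647 to 786, while HSPA2 overlapped.

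On the brightest probe sets TRiC had the smallest median size of change of the role groups, 0.05 on the log2 scale. The 6 measured subunits of TRiC, the cytosolic chaperonin that folds actin and tubulin, had log2 changes from -0.07 to 0.10. Every 95% interval of these probe sets lay within 1.5-fold. Dimmer probe sets went down to -0.23 for CCT4 and -0.24 for CCT6A, and 1 of CCT6A separated the days (lowest limma adjusted p = 0.802 and 0.405). CCT4 had 1746, 1747 and 1772 at E80, against 1696, 1839 and 1916 at E60. CCT2, CCT6A, CCT7, CCT8 and TCP1 averaged between 1009 and 1540.4 at E80. The mitochondrial chaperonin HSPD1 (HSP60) and its lid HSPE1 (HSP10) had log2 changes of 0.10 and 0.09, with intervals of -0.15 to 0.34 and -0.09 to 0.28.

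Prefoldin hands unfolded actin and tubulin to TRiC, and 4 of its subunits were measured. PFDN5 had 381, 425 and 336 at E80, against 287, 310.4 and 263 at E60, higher on all E80 arrays by a log2 change of 0.41 (SE 0.12, adjusted p = 0.127). The other subunits PFDN1, PFDN4 and PFDN6 had log2 changes of 0.23, 0.03 and -0.15 with overlap, so the subunits did not share a direction.

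Of the 6 ER folding factors outside the HSP families, 0 were called and 1 was higher before adjustment. Every interval of the brightest probe sets lay within 1.5-fold. SERP1, a small protein of the ER translocon, had 411, 439.6 and 439 at E80, against 358, 356 and 366 at E60. The arrays of each day lay close together and did not overlap, with a log2 change of 0.26 (SE 0.09, adjusted p = 0.168). The lectin chaperones calnexin (CANX) and calreticulin (CALR) had log2 changes of 0.02 and 0.03, and the disulphide isomerases PDIA3, PDIA4 and PDIA6 had 0.06, -0.08 and -0.15. A dimmer probe set gave -0.42 for PDIA3 and -0.33 for PDIA4, both with overlap (adjusted p = 0.276 and 0.297).

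The 14 FKBPs varied more than any other group of at least 10 genes, with a median size of change of 0.33 on the log2 scale. FKBP1B had 1022, 991 and 1016 at E80, against 647, 724 and 786 at E60. The E80 arrays lay within a narrow range above all E60 arrays, and the log2 change was 0.49 (SE 0.09, 95% interval 0.28 to 0.71, limma adjusted p = 0.0438). A dimmer probe set of FKBP1B had 209.8, 206 and 217 at E80, against 116, 156 and 179 at E60, and gave 0.51 (adjusted p = 0.153). The call of FKBP1B held in 7 of 15 alternative settings, 1 of which used the same probe set and the same fit. Its log2 change was positive in all 15, at 0.42 to 0.61. Since its days did not overlap, most of these settings could not have reversed it. Its adjusted p was 0.161, 0.0717 or 0.0997 without E80 array 1, 2 or 3, and 0.146, 0.152 or 0.0456 without E60 array 1, 2 or 3.

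FKBP1A, the close relative FKBP12, had 1164, 922 and 1142 at E80, against 837, 731 and 1004 at E60, with overlap and a log2 change of 0.33 (adjusted p = 0.265). FKBP2, a small FKBP of the ER, had 432, 335 and 461 at E80, against 243, 281 and 298 at E60. It was higher on all E80 arrays by a log2 change of 0.57 (SE 0.14, adjusted p = 0.0859). Leaving out 1 array gave log2 changes of 0.48 to 0.71, with adjusted p of 0.253, 0.0466 or 0.182 without E80 array 1, 2 or 3, and 0.251, 0.227 or 0.0986 without E60 array 1, 2 or 3. FKBP11, also of the secretory pathway, had 71.7, 73.9 and 76.4 at E80, against 63.5, 62.4 and 62.1 at E60, without overlap and with a log2 change of 0.24 (adjusted p = 0.435). FKBP5, which binds HSP90 in steroid receptor complexes, had 47.9, 57.9 and 50.9 at E80, against 63.6, 78.5 and 71.2 at E60. It was lower on all E80 arrays by a log2 change of -0.44 (SE 0.17, adjusted p = 0.228), while FKBP4, which binds HSP90 in the same complexes, had a log2 change of 0.21 with overlap.

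FKBP8, which sits in the outer mitochondrial membrane, had 543, 409 and 714 at E80, against 309.7, 325 and 802 at E60. Array 3 was the highest on both days, and the interval of its log2 change of 0.33 was -0.50 to 1.15. FKBP6 was at 0.693 to 2.96 on all arrays. FKBP3 and FKBP15 had log2 changes of 0.04 and -0.04.

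FKBP10, an ER protein that helps collagen fold, had the lowest log2 change among members with a mean signal above the array's median, -0.77 (SE 0.19, 95% interval -1.20 to -0.34, adjusted p = 0.0828). Its signals were 65.7, 101 and 72.7 at E80, against 152, 125 and 127 at E60. All E80 arrays were lower, and E80 array 2 was the closest to E60. Leaving out 1 array gave log2 changes of -0.95 to -0.64, with adjusted p of 0.236, 0.0449 or 0.167 without E80 array 1, 2 or 3, and 0.250, 0.210 or 0.116 without E60 array 1, 2 or 3. SERPINH1, the collagen chaperone HSP47, which is outside the 88 genes, had 231, 286 and 248 at E80, against 314, 336 and 339 at E60, a log2 change of -0.37 (adjusted p = 0.127). The fibroblast genes COL1A2, LUM and DCN also had their highest E80 signal on array 2. COL1A2 had 167, 290.0 and 146 at E80, against 384, 416 and 319 at E60 (adjusted p = 0.0906). The summed signal of the 4 measured genes of the 5 on a list of meningeal and fibroblast markers was 430, 847 and 332 at E80, against 1027, 1291 and 819 at E60, and 0 of the 4 were called (3 were lower before adjustment). COL3A1, on the same list, went the other way, with a log2 change of 0.22 (adjusted p = 0.756). It had 61.1, 56.1 and 42.3 at E80, against 60.0, 52.9 and 28.9 at E60. The days overlapped, and its highest E80 signal was on array 1. In these bulk samples fewer cells of a type and less RNA in each cell cannot be told apart, and the part of fibroblasts in the values of FKBP10 was not tested. Other FKBPs of the secretory pathway gave -0.21 for FKBP9, -0.61 for FKBP7 and 0.12 for FKBP14, all with overlap.

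**Figure D3:**
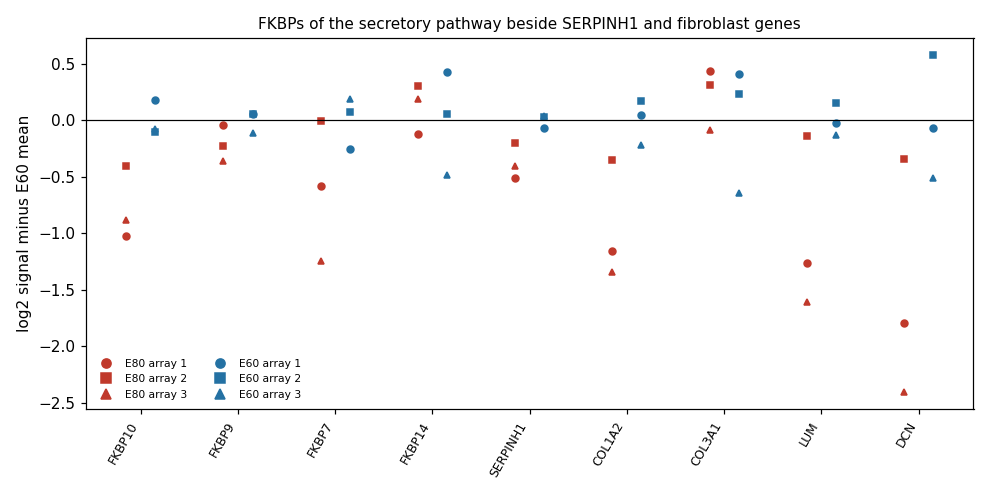
Log2 signal on each array minus the mean of the E60 arrays, E80 in red left of E60 in blue, for 4 FKBPs of the secretory pathway, SERPINH1 and 4 fibroblast genes. FKBP10, SERPINH1, COL1A2 and LUM lie below all E60 arrays on every E80 array, with the second E80 array closest to E60.

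Of the 6 cyclophilins, 0 were called and 1 was higher before adjustment. PPIE, a cyclophilin of the spliceosome, had 60.8, 67.3 and 65.2 at E80, against 44.4, 48.6 and 38.2 at E60, higher on all E80 arrays by a log2 change of 0.57 (SE 0.18, adjusted p = 0.149). PPIA, the abundant cytosolic cyclophilin A, averaged 2986 ± 225 at E80 and 2641 ± 134 at E60 (SD, n = 3 each), a log2 change of 0.18 with overlap. PPID, PPIF and PPIH had log2 changes of 0.13, 0.03 and -0.17. PPIG had 349, 334 and 61.9 at E80, against 489.5, 399 and 113 at E60. Array 3 was far below the others on both days, and the interval was -2.24 to 1.17.

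In all, the arrays of the days did not overlap for 13 genes with higher E80 signals (14.8%) and for 5 with lower (5.68%), against 9.25% and 14.4% of all probe sets and 12.8% and 14.7% of the brightest probe sets of all genes. With each array centred on its median these counts became 23 and 3, against 14.8% and 8.84% of all probe sets. With quantile normalization they became 11 and 9, against 10.8% and 11.9% of all probe sets, so the surplus of higher genes depends on the scaling. None of the 13 and 5 genes changed direction in any alternative setting, but for most settings this was fixed beforehand. Where the days do not overlap, leaving out an array or changing the variance model cannot reverse the direction. Only the other scalings and other choices of probe set could have done so.

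A list of 19 genes known to be induced by heat in human and mouse cells had 13 measured, 12 of them among the 88 genes. Of the 13, 0 were called and 3 were higher at a p under 0.05 before adjustment, namely HSPA8, HSPH1 and CRYAB. Over all probe sets 7.12% were higher at such a p, and on the brightest probe set of every gene 683 of 6765 were. CRYAB, a small heat shock protein named outside the symbol rule, had 52.3, 62.4 and 82.0 at E80, against 17.3, 35.1 and 39.5 at E60, a log2 change of 1.16 (95% interval 0.37 to 1.95, adjusted p = 0.128). Its dimmer probe set had 4.25, 15.4 and 9.51 at E80, against 17.7, 17.1 and 12.2 at E60, a log2 change of -0.85, and the mean of both probe sets gave 0.15 (adjusted p = 0.865). The strongly inducible genes DNAJB1 and BAG3 had log2 changes of -0.25 and -0.20. DNAJB1 had 161, 209 and 147 at E80, against 194, 244 and 177 at E60, with overlap. In the list 10 of 13 changes were positive and 3 negative, and the median was 0.13. Over the brightest probe set of every gene 3377 changes were positive and 3388 negative, with a median of 0.00. HSPB1, DNAJA1, HSPD1, HSPE1 and FKBP4 kept their positive direction in only 14 of 15 alternative settings each. HSPA6 kept its negative direction in 13 of 14. Of 8 immediate early genes, which respond within minutes to many stimuli, 5 were measured and 0 called. FOS alone had a p under 0.05 before adjustment, with 61.3, 54.1 and 83.1 at E80, against 37.0, 36.7 and 38.8 at E60 (adjusted p = 0.101), while IER2, EGR1, JUN and ATF3 overlapped.

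Of 23 genes known to be induced by unfolded protein in the ER, 18 were measured, 10 of them among the 88 genes, and 0 were called. XBP1, ATF4 and SERP1 were higher at a p under 0.05 before adjustment and none was lower, beside 7.12% and 10.8% of all probe sets. On the brightest probe set of every gene, 683 of 6765 were higher and 717 lower at such a p. The transcription factor XBP1 had 709, 803 and 755 at E80, against 605, 702 and 584 at E60, a log2 change of 0.27 (adjusted p = 0.221). ATF4, a transcription factor of the integrated stress response, had 1191, 979 and 1227 at E80, against 843, 948 and 962 at E60, a log2 change of 0.30 (adjusted p = 0.206). DDIT3 (CHOP), a transcription factor of prolonged ER stress, and the secreted factor MANF were higher on all E80 arrays, by log2 changes of 0.33 and 0.16 (adjusted p = 0.283 and 0.390). SDF2L1, an ER partner of J proteins, was dim and spread widely, with 9.07, 20.9 and 35.0 at E80, against 13.3, 3.94 and 11.1 at E60, a log2 change of 1.17 with an interval of -0.27 to 2.62. The ER chaperones HSPA5, HSP90B1, HYOU1 and CALR and the ER J proteins DNAJB9 and DNAJB11 lay between -0.07 and 0.03, PDIA3, PDIA4, PDIA6 and CRELD2 between -0.15 and 0.06, and DNAJC3 and ATF3 at 0.76 and -0.49, all with overlap. The median log2 change of the 18 genes was 0.02.

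**Figure D4:**
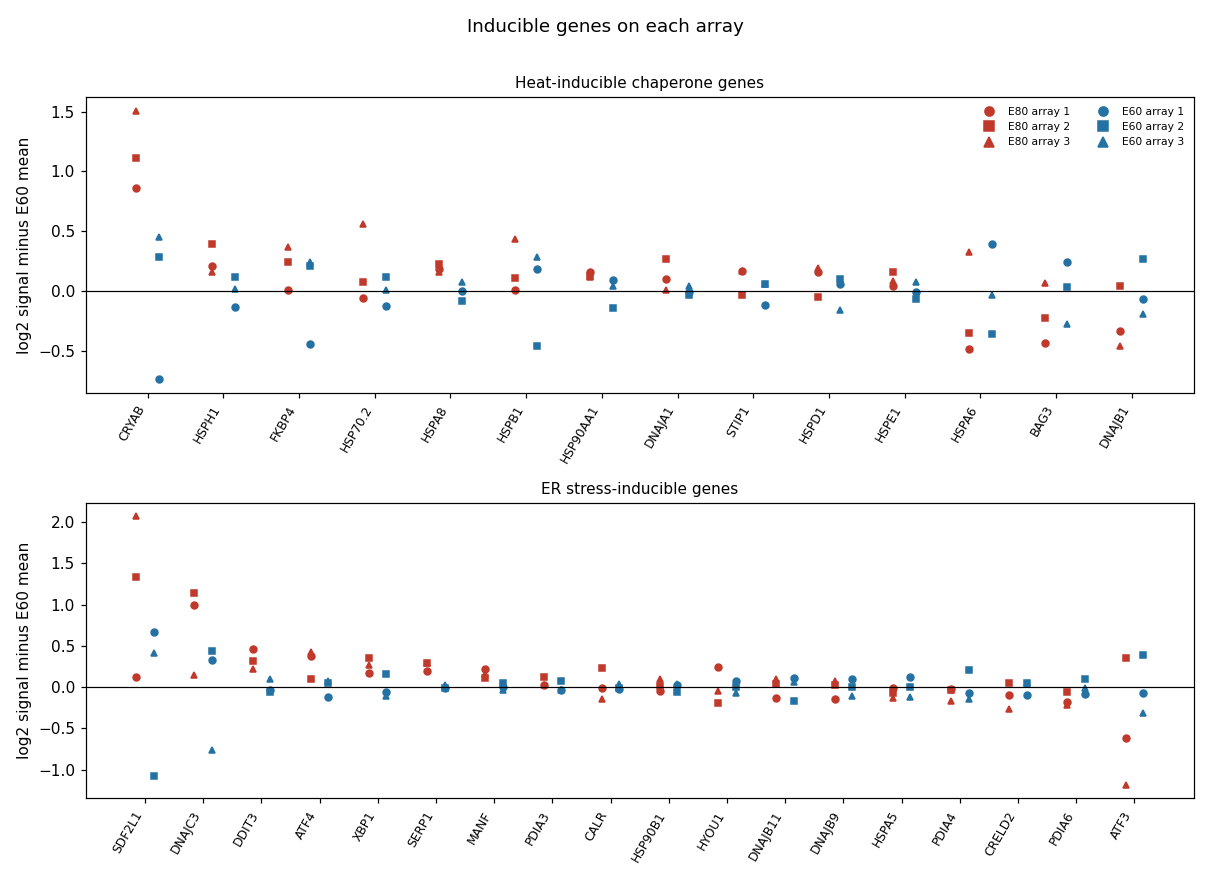
Log2 signal on each array minus the mean of the E60 arrays, E80 in red left of E60 in blue, for the measured heat-inducible genes with HSP70.2 beside them (top) and the ER stress-inducible genes (bottom). No gene passed the test, and most points lie close to 0.

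Folding genes outside the symbol rule gave a similar picture. Of 94 listed, 57 were measured and 0 were called in either direction. At a p under 0.05 before adjustment 5 were higher and 5 lower (17.5%), against 18.0% of all probe sets and 20.7% of the brightest probe sets of all genes. The smallest adjusted p, 0.0760, was that of PDRG1, a protein of a prefoldin-like complex, with 337, 295 and 299 at E80, against 436, 422 and 388 at E60. It was lower on all E80 arrays by a log2 change of -0.42 (SE 0.10). PPIL2, a cyclophilin with a ubiquitin ligase domain, had 124, 166 and 116 at E80, against 183, 202 and 191 at E60, a log2 change of -0.52 (adjusted p = 0.127). HSF2, a heat shock transcription factor, had 624, 659 and 553 at E80, against 712, 781 and 749 at E60, a log2 change of -0.29 (adjusted p = 0.163). ERP29, an ER folding factor, had 802, 786 and 800.4 at E80, against 634, 671 and 707 at E60, a log2 change of 0.25 (adjusted p = 0.162). Each of these 4 genes separated the days.

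Of the 88 genes, 33 had several probe sets, 87 in all. All probe sets of a gene had the same direction for 19 of them and mixed directions for 14, in the deposited scaling. No gene was called on another probe set than its brightest. The days did not overlap on any probe set of HSPA8, DNAJC2 and FKBP1B. CANX, with 6 probe sets, ran from -0.51 to 0.23, and the dimmer ones spread most. Related genes of a family share stretches of sequence, and hybridisation of one transcript to the probes of another was not tested.

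**Figure D5:**
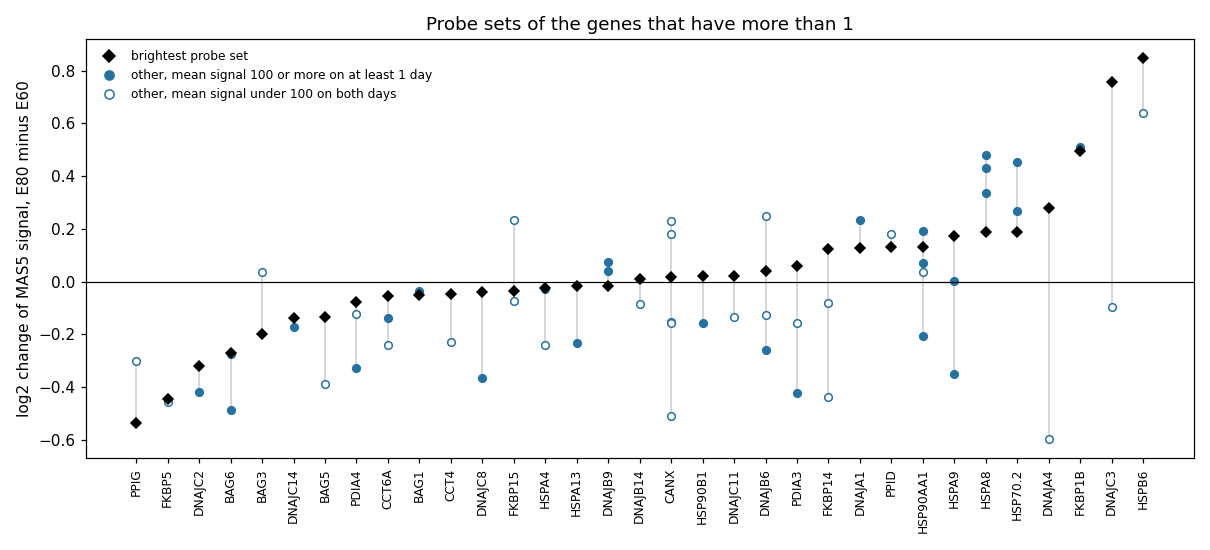
Log2 change, E80 minus E60, of every probe set of the 33 genes with more than 1, with black diamonds for the brightest, filled circles for others with a mean signal of 100 or more on at least 1 day and open circles for dimmer ones. All probe sets of HSPA8 lie above 0, from 0.19 to 0.48, while those of CANX lie on both sides of 0.

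The cortical identity of the samples and their differences were checked with marker lists. The neuronal genes MAP2 and STMN2 had signals of 2705 to 4262 on all arrays, and 3 of the 11 listed cortical neuron genes were measured. SNAP25, a synaptic protein, was called higher at E80 (log2 change 0.46, adjusted p = 0.0342), as were 3 of the 4 measured astrocyte genes. Of the radial glia genes 2 were measured, VIM and HES1, and both were lower on all E80 arrays (log2 changes -0.38 and -0.34). Of the 3 measured oligodendrocyte genes, MBP and OLIG2 were higher on all E80 arrays (1.71 and 0.64). None of these 4 genes was called (adjusted p = 0.179, 0.287, 0.177 and 0.249). The remaining oligodendrocyte gene, SOX10, was dim and overlapped, with a log2 change of -0.02 (adjusted p = 0.988). The third E80 array stood apart. Its summed choroid plexus markers were at 5463, against 89 to 196 on the other arrays, its microglial markers at 552, against 149 to 223, and its 28S rRNA control at 165, against 525 to 999.9. Without that array FKBP1B had a log2 change of 0.49 and was not called (adjusted p = 0.0997), and 0 of the 88 genes were called. Over all probe sets 97 were then called higher and 103 lower, in place of 224 and 243. The ratio of 3' to 5' signal was 0.851 to 1.12 for actin and 1.22 to 1.41 for GAPDH over the 6 arrays. The part of these differences in the values of the folding genes was not tested.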

How the data were processed

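The authors hybridised cortical RNA of 3 E80 and 3 E60 pig embryos, and deposited 1 intensity value per probe set and array, a MAS5 signal. The software version and the detection calls of single probe sets were not given in the sources used here, which give scale factors and the number of probe sets called present only per array. The trimmed mean of each array (2% left out at each end) is about 150.02, so the authors' scaling set a common level and no other normalization was found. The log2 of the deposited signal was taken with no pseudocount, which leaves dim probe sets noisy, and 124 control probe sets of 24123 were left out. The days were compared by a linear model of all 6 arrays without covariates, using limma version 3.58.1 under R version 4.3.3, with variances moderated along an intensity trend and p-values adjusted by Benjamini-Hochberg for 23999 probe sets. The number of arrays limits the precision. The script was tested on simulated data.

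Gene names come from the platform's annotation, which gives 1 symbol to 10069 probe sets, several to 198 and none to 13732. Of the 88 genes, 87 have an Entrez identifier with the same symbol in a RefSeq gene table and CCT6A has none there. No coordinates or sequences are given, since no genome was used here. The brightest probe set has the highest mean log2 signal over the 6 arrays. The genes and lists were chosen with earlier results of these data known. The text names called genes, in each role group up to 4 genes with the smallest adjusted p and the 2 brightest, the measured inducible genes among the 88, and up to 6 genes of the comparison list with the smallest p. Other genes were named after their values were seen, namely HSPA4, HSPA9, HSPA12A, HSPA13, BAG1, DNAJA2, DNAJC5, DNAJC19, FKBP6 to FKBP9, FKBP11, FKBP14, FKBP15, PPIF, PPIG, CCT6A, CCT7, XBP1, ATF4, HYOU1, DDIT3, MANF, SDF2L1, CRELD2 and the immediate early and cell type genes. Alternatives were 2 other scalings, an added signal of 32, a filter on dim probe sets, other variance models, array weights, leaving out each array, a rule of 3-fold without overlap and other choices of probe set.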

Additional observations from a re-analysis of the deposited data

How the results depend on the processing

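The count of 1 gene called higher became 0 with quantile normalization, with no intensity trend and with a rule of 3-fold without overlap, 2 with median centring, with the brightest 66% of probe sets and with the robust variance model (FKBP1B and DNAJC6 each time), and 4 with array weights (FKBP1B, DNAJC6, FKBP2 and HSPB6). With the mean over all probe sets of a gene it was again 1, but for DNAJC6. Of all probe sets, 1.06% were called higher with quantile normalization, 1.30% with median centring and 2.17% with array weights. The share was 1.05% with the robust variance model, 2.23% of the 15839 probe sets left by the filter and 1.02% of the 20695 values with probe sets averaged. Leaving out 1 array gave 0 to 1 genes higher and 0 to 1 lower. The count higher was 0 without E80 array 1 or 3 or E60 array 1 or 2, and without E80 array 2 FKBP2 was called higher and FKBP10 lower. Of all 23999 probe sets, 0 were called higher and 1 lower without E80 array 1, E60 array 1 or E60 array 2. Without E80 array 3, 97 were called higher and 103 lower, and without E80 array 2, 178 and 189. The count of the 88 genes called lower became 1 with array weights, for FKBP10, beside 2.70% of all probe sets. PDRG1 of the other folding genes was then also called lower (1 gene). With no intensity trend 0 of all 23999 probe sets were called, and 8 of the 88 genes had a p under 0.05 before adjustment. The median log2 change of 0.03 became 0.14 with median centring, 0.0047 with quantile normalization and -0.0036 with the mean over all probe sets of a gene, and 0.03 to 0.05 when 1 array was left out (0.0293 to 0.0548). Over 94 genes and 1406 pairs of gene and setting, 0 called values changed sign, 8 lost and 11 gained a call, and 94 uncalled values changed sign. The cause of these differences was not tested. No paired analysis was possible because the labels number the arrays through and share no replicate number between the days. With 3 arrays a day, the 95% interval lay within 1.5-fold for 55 of the 88 genes.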
